A study of Mus musculus with 12 samples.

Results

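Collagens are the proteins of the extracellular matrix built from a triple helix, and a mouse lung carries transcripts of many of their genes. The 44 collagen genes described here are those whose symbol in the array's annotation is Col, a number, a and a number with nothing after it. They were taken from 22180 genes that had a probe paired with 1 symbol, and the probe with the highest mean represented each gene. They fall into 11 fibrillar genes, 6 of type IV (Col4, basement membrane), 6 of type VI (Col6, beaded microfibrils) and 21 of other types. RNA of lung from 12 female mice, each 10 weeks old, had been hybridised to one-colour Affymetrix arrays, 1 per mouse. The 4 groups of 3 mice were Zmpste24-/- ventilated, wild type ventilated, Zmpste24-/- baseline and wild type baseline. Zmpste24 is the metalloprotease that cleaves farnesylated prelamin A, and the labels describe the mutants only as deficient in it. Ventilated mice received 2.5 h of mechanical ventilation at an inspiratory pressure of 15 cmH2O, 100 breaths per min and an inspired oxygen fraction of 0.21, with no end-expiratory pressure. Baseline mice were intact and not ventilated, so the 2 conditions differ in everything that goes with the procedure. Values are log2 expression as deposited, and the level of one gene's probe cannot be set against that of another.

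Fibrillar collagens are made as procollagen chains that are hydroxylated and folded in the endoplasmic reticulum, secreted, trimmed at both ends by proteases and joined into fibrils that lysyl oxidases crosslink. In lung, types I and III give the interstitium and vessel walls their tensile strength and are made mainly by fibroblasts and other mesenchymal cells. Type IV forms the sheet-like network of the alveolar and capillary basement membranes, and type VI forms microfibrils that link cells to the fibrils around them. Fibril-associated collagens such as Col12a1 and Col14a1 decorate the surface of fibrils.

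Zmpste24 itself checked the labels. It read 5.01, 5.73 and 5.43 in ventilated Zmpste24-/- lungs, 8.50, 9.28 and 8.91 in ventilated wild type lungs, 5.91, 5.31 and 5.44 in baseline Zmpste24-/- lungs and 9.0, 9.02 and 8.50 in baseline wild type lungs. Every Zmpste24-/- array lay below every wild type array. The labels do not place its probe against the deletion. Array medians ran from 5.35 to 5.42, and array correlations were 0.986 to 0.992 within groups and 0.970 to 0.988 between them. The lung label held: the summed level of 8 alveolar type 2 markers, on a log2 scale, was 15.08 to 15.34 over all arrays. The 6 liver transcripts summed to 12.23 on wild type baseline array 2, against 7.39 to 9.78 on the other arrays, so collagen counts are also given without that array. Nothing in the labels says that arrays of a group came from separate litters or days, and the p-values measure the spread between these mice.

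Of the 11 fibrillar genes, Col1a1, Col1a2, Col3a1, Col5a1 and Col5a2 were lower in Zmpste24-/- lungs, both under ventilation and at baseline, and the other 6 passed in neither comparison. Under ventilation Col3a1 was 3.86-fold, Col1a1 3.30-fold and Col1a2 2.75-fold lower than in wild type. At baseline the same genes were 2.29-fold, 2.25-fold and 1.78-fold lower. A gene passed when its adjusted p in the limma fit of all genes was under 0.05. Of 44 collagens, 10 passed under ventilation, all lower and none higher, where 10.8% of all genes passed (6.08% lower, 4.72% higher). At baseline 7 passed, again all lower, where 6.31% of all genes passed (4.11% lower, 2.2% higher). The share of collagens that passed as lower was 22.7% under ventilation and 15.9% at baseline. The arrays of the genotypes did not overlap for 18 collagens under ventilation, against 30.3% of all genes, and for 14 at baseline, against 23.9%.

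Col1a1, the gene of the alpha 1 chain of type I collagen, read 8.18, 7.99 and 8.11 in ventilated Zmpste24-/- lungs and 9.78, 9.74 and 9.94 in ventilated wild type lungs. It read 8.82, 8.86 and 8.44 in baseline Zmpste24-/- lungs and 9.72, 9.75 and 10.17 in baseline wild type lungs. The mutant arrays lay below the wild type arrays in both conditions, and the ventilated mutant arrays were lower than the baseline mutant arrays as well. The genotype difference was -1.72 ± 0.13 (SE, n = 3 each) under ventilation, adjusted p = 2.36e-05 by limma, and -1.17 ± 0.13 at baseline, adjusted p = 0.000413.

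Col1a2 encodes the alpha 2 chain that completes the type I trimer. Its level was 7.61, 7.65 and 7.49 in ventilated Zmpste24-/- lungs, against 8.94, 9.08 and 9.10 in ventilated wild type lungs. In baseline lungs it was 8.38, 8.33 and 8.17 in Zmpste24-/- mice, against 9.04, 9.07 and 9.28 in wild type mice. The groups had the same order as for Col1a1, with no overlap between the genotypes in either condition. The genotype difference was -1.46 ± 0.09 under ventilation (adjusted p = 5.57e-06 by limma) and -0.83 ± 0.09 at baseline (adjusted p = 0.000362).

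Col3a1, whose homotrimer forms fibrils together with type I in extensible tissue, read 7.39, 7.37 and 7.17 in ventilated Zmpste24-/- lungs and 8.82, 9.42 and 9.53 in ventilated wild type lungs. At baseline it read 8.0, 8.25 and 7.92 in Zmpste24-/- lungs and 9.10, 9.18 and 9.48 in wild type lungs. Its genotype differences, -1.95 ± 0.16 under ventilation and -1.20 ± 0.16 at baseline, were the most negative of the 44 collagens in each condition (adjusted p = 3.4e-05 and 0.00136 by limma). One wild type ventilated array, at 8.82, lay well under the other two, and both mutant groups were still below it.

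**Figure D1:**
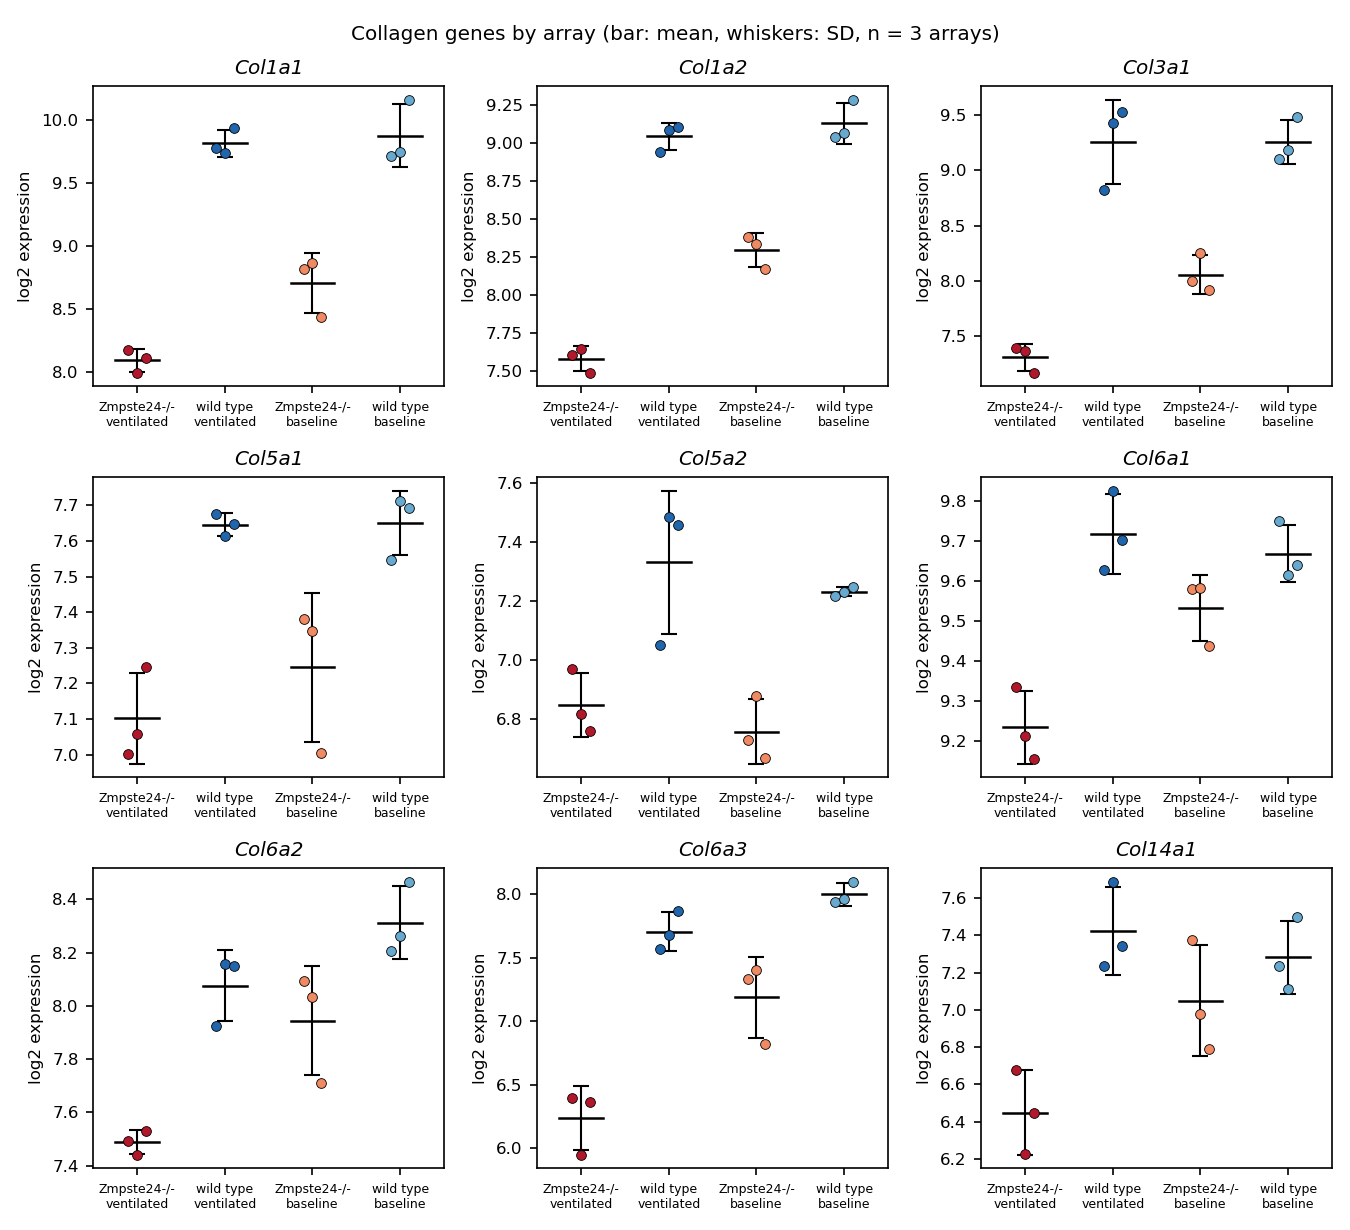
Log2 expression (y axis, each panel with its own scale that does not start at 0) of 9 collagen genes on each array, with groups along the x axis, a bar for the mean and whiskers for the SD of 3 arrays. Every Zmpste24-/- ventilated point of these genes lies below every wild type ventilated point, and for Col14a1 the baseline genotypes overlap.

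The 2 type V chains that passed, of a type whose chains nucleate type I fibrils and limit their width, differed less between the genotypes. Col5a1 had 7.0, 7.06 and 7.25 in ventilated Zmpste24-/- lungs and 7.68, 7.61 and 7.65 in ventilated wild type lungs. In baseline lungs it had 7.38, 7.35 and 7.0 in Zmpste24-/- mice and 7.55, 7.71 and 7.69 in wild type mice. The arrays of the genotypes did not overlap in either condition, and the difference was 1.46-fold lower under ventilation (adjusted p = 0.00522 by limma) and 1.33-fold lower at baseline (adjusted p = 0.0359). The baseline call held in 11 of 21 alternative settings and the ventilation call in 20.

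Col5a2 averaged 6.85 ± 0.11 in ventilated Zmpste24-/- lungs and 7.33 ± 0.24 in ventilated wild type lungs, and 6.76 ± 0.11 in baseline Zmpste24-/- lungs and 7.23 ± 0.01 in baseline wild type lungs (SD, n = 3 each). The genotype difference was of similar size under ventilation, -0.48 ± 0.11 (adjusted p = 0.0139 by limma), and at baseline, -0.47 ± 0.11 (adjusted p = 0.0229). The ventilation call was lost without Zmpste24-/- ventilated array 3 or wild type ventilated array 2 or 3 (adjusted p up to 0.0678). The baseline call was lost on leaving out Zmpste24-/- baseline array 1 or 3 or any of the 3 wild type baseline arrays, with adjusted p up to 0.0968. The remaining 6 fibrillar genes, Col2a1, Col5a3, Col11a1, Col11a2, Col24a1 and Col27a1, passed in no comparison. Col11a1 and Col24a1 were under the median of the array on all 12 arrays. Over the 11 fibrillar genes the median genotype difference was -0.09 in each condition, where the median of all genes was 0.01 under ventilation and -0.01 at baseline.

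In bulk lung RNA, fewer cells of a type and less RNA per cell cannot be told apart. The marker lists are to be read against the shares of all genes that were lower (6.08% under ventilation, 4.11% at baseline) or higher (4.72% and 2.2%). Of 12 fibroblast markers, 6 were lower and 1 higher in ventilated Zmpste24-/- than in ventilated wild type lungs, with a median difference of -0.33, and 3 were lower and none higher at baseline, with a median of -0.29. Their summed log2 level was 13.28 to 13.49 in ventilated Zmpste24-/- lungs, 13.49 to 13.63 in ventilated wild type lungs, 13.73 to 13.82 in baseline Zmpste24-/- lungs and 13.86 to 13.90 in baseline wild type lungs. None of the 12 was under the array median on all arrays. Markers of the list differed among themselves, as 3 members chosen after their values were seen show. Pdgfra, a receptor of alveolar and adventitial fibroblasts, gave genotype differences of 0.01 under ventilation and -0.11 at baseline, and Dcn gave 0.02 and 0.42, none of which passed. Pdgfrb, a receptor of pericytes and some fibroblasts, was lower by 1.49-fold and 1.94-fold (adjusted p = 0.00729 and 0.00076 by limma). Of 8 smooth muscle and pericyte markers, 2 passed as lower under ventilation, where all 8 differences were below 0 with a median of -0.78. At baseline none passed by limma, and 7 of the 8 differences were below 0, with a median of -0.52. An unadjusted p under 0.05 was found there for 2 of the 8, and for 4635 of all 22180 genes. Their summed log2 level was 11.33 to 11.62 in ventilated Zmpste24-/- lungs, 11.98 to 13.02 in ventilated wild type lungs, 11.37 to 12.28 in baseline Zmpste24-/- lungs and 12.18 to 12.44 in baseline wild type lungs. All 5 markers of the cardiac muscle of pulmonary veins gave differences below 0 in both conditions, with medians of -1.62 and -0.74, and 1 passed under ventilation. Of 10 endothelial markers, 4 were lower under ventilation and 6 at baseline, with medians of -0.29 and -0.39. The part of these shifts in the collagen differences was not tested.

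Promoter windows of 4 members are shown because the first 3 were lower together in mutant lungs while the fourth, from the basement membrane class, did not pass. They come from RefSeq (GRCm38.p6), 300 bases from 250 before to 50 after the annotated start, 5′ to 3′ on the gene's strand. Capitals mark matches on either strand to 4 motifs. These were the CCAAT box with the letters CCAAT, the GC box with the letters GGGCGG, the TATA box with the letters TATAAA and the AP-1 site with the letters TGANTCA, and no 2 matches overlapped in the windows shown. The genome build behind the array's probes is not stated in the labels, so its probes were not placed in these windows.
Col1a2 (chr6:4505368-4505667, plus strand): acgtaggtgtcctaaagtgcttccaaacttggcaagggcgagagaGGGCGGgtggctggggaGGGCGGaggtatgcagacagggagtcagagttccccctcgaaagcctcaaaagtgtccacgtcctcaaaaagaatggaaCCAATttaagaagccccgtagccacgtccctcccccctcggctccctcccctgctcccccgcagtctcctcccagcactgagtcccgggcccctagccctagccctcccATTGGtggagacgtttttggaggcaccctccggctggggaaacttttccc
Col3a1 (chr1:45311288-45311587, plus strand): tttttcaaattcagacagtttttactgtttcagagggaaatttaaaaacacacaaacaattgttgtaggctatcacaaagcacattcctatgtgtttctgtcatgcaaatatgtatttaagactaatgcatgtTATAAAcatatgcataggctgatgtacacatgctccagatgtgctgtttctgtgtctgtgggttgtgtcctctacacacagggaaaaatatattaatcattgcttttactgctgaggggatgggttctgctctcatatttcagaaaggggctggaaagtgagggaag
Col6a3 (chr1:90843922-90844221, minus strand): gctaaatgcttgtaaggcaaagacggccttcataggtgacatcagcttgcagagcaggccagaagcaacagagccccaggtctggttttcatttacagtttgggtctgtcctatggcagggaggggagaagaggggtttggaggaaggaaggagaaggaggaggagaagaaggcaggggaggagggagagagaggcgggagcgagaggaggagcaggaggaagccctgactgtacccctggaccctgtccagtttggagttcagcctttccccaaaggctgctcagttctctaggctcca
Col4a1 (chr8:11312777-11313076, minus strand): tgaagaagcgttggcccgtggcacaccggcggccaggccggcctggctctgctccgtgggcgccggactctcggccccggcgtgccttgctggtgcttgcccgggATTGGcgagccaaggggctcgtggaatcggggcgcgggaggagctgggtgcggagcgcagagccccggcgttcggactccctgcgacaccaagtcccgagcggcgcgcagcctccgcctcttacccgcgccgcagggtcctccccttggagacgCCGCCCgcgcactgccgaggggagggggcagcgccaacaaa

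The window of Col1a2 is 61% G and C and holds 2 GC boxes, 205 and 188 bases before the start, and 2 CCAAT boxes, the inverted one at the start itself. Col3a1's window is 37.7% G and C with 1 TATAAA, 117 bases before the start. The window of Col6a3 is 56.3% G and C and has none of the 4 motifs, and that of Col4a1 is 74% and has an inverted CCAAT box and an inverted GC box. Col4a1 and Col4a2 are divergent neighbours on opposite strands, and their windows share 78 bases. Windows were held for 35 of the 44 collagens, 38 windows in all. A GC box lay in 23 of the 38 (35.7% of all 32851 windows), a CCAAT box in 13 (37.4% of all), a TATA box in 5 (13.6%) and an AP-1 site in 1 (7.81%). These matches describe letters only.

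Type VI collagen is assembled from alpha 1, alpha 2 and one more chain, usually alpha 3. The 3 genes of this classical trimer, Col6a1, Col6a2 and Col6a3, were lower in ventilated Zmpste24-/- than in ventilated wild type lungs, while the alternative partners Col6a4, Col6a5 and Col6a6 passed in no comparison. Col6a3 gave 6.40, 5.95 and 6.36 in ventilated Zmpste24-/- lungs and 7.56, 7.68 and 7.87 in ventilated wild type lungs. In baseline lungs it gave 7.33, 7.41 and 6.82 in Zmpste24-/- mice and 7.94, 7.96 and 8.10 in wild type mice. The 4 groups did not overlap, and their means increased in the order Zmpste24-/- ventilated, Zmpste24-/- baseline, wild type ventilated and wild type baseline. Wild type ventilated and wild type baseline, neighbours in that order, did not pass (adjusted p = 0.315 by limma). Its genotype difference was -1.47 ± 0.15 under ventilation (adjusted p = 0.000133 by limma) and -0.81 ± 0.15 at baseline (adjusted p = 0.00769).

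Col6a2 read 7.49, 7.44 and 7.53 in ventilated Zmpste24-/- lungs and 7.92, 8.16 and 8.15 in ventilated wild type lungs. At baseline it read 8.09, 8.03 and 7.71 in Zmpste24-/- lungs and 8.21, 8.26 and 8.47 in wild type lungs. Zmpste24-/- ventilated arrays were the lowest of all, 1.5-fold below wild type ventilated arrays (adjusted p = 0.00441 by limma). The baseline difference, -0.37 ± 0.11, did not pass (adjusted p = 0.0688) although the arrays did not overlap.

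Col6a1 averaged 9.23 ± 0.09 in ventilated Zmpste24-/- lungs and 9.72 ± 0.10 in ventilated wild type lungs, and 9.53 ± 0.08 in baseline Zmpste24-/- lungs and 9.67 ± 0.07 in baseline wild type lungs (SD, n = 3 each). It was 1.40-fold lower under ventilation (adjusted p = 0.00303 by limma), and the baseline difference of -0.14 did not pass (adjusted p = 0.405). Col6a4 and Col6a5 lay under the array median on all arrays. Median differences over the 6 Col6 genes were -0.18 under ventilation and -0.06 at baseline.

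Col1a2, Col5a1 and Col6a1 each had a second 1-symbol probe, of much lower signal (means 3.72, 4.99 and 5.81, against 8.51, 7.41 and 9.54 for the probe used). None of these second probes passed between the genotypes, with differences of -0.08, 0.23 and 0.13 under ventilation and 0.04, 0.20 and 0.51 at baseline. For Col6a1 the second probe thus pointed up at baseline, where the probe used gave -0.14. With the mean of the 2 probes in place of the brighter one, Col5a1 and Col6a1 did not pass under ventilation (adjusted p = 0.379 and 0.426 by limma), and the differences of Col1a2 shrank to -0.77 under ventilation and -0.40 at baseline and still passed.

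**Figure D2:**
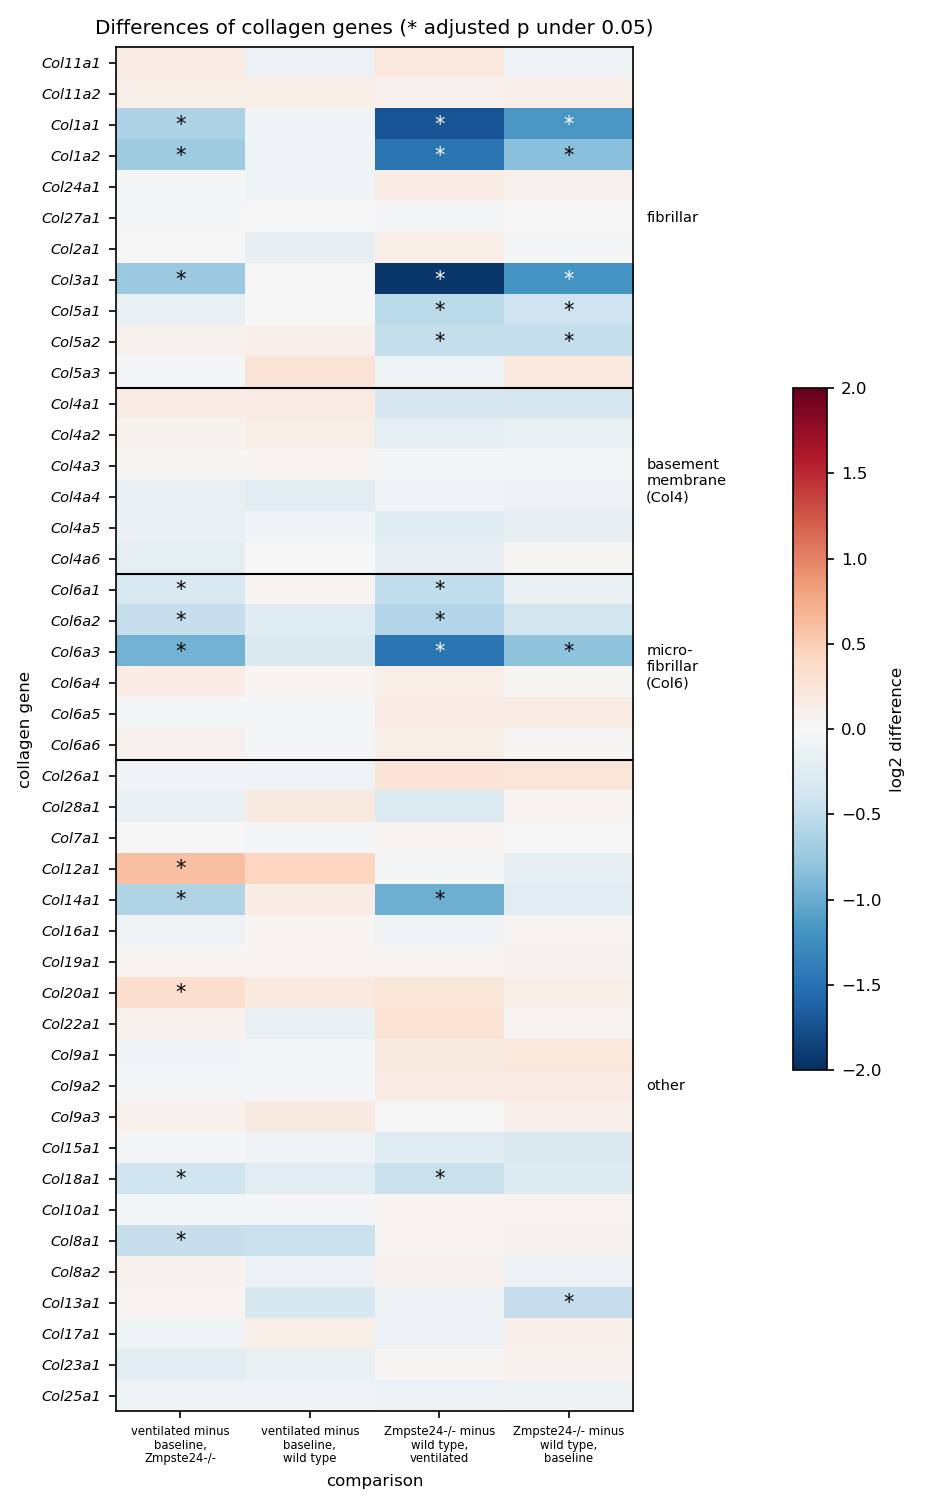
Colour shows the log2 difference (scale bar, -2 to 2) of each of the 44 collagen genes, in rows grouped by class, in the 4 pairwise comparisons, in columns. An asterisk marks an adjusted p under 0.05: 11, 0, 10 and 7 genes from left to right, with none in the 6 Col4 rows.

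None of the 6 type IV genes passed in any comparison. The main network of vascular and alveolar basement membranes consists of the chains of Col4a1 and Col4a2. Col4a1 read 8.75, 8.94 and 8.87 in ventilated Zmpste24-/- lungs and 8.93, 9.20 and 9.41 in ventilated wild type lungs. It read 8.70, 8.81 and 8.56 in baseline Zmpste24-/- lungs and 9.13, 8.94 and 8.97 in baseline wild type lungs. The ventilated genotypes overlapped slightly and the baseline genotypes did not. The differences were -0.33 ± 0.12 (95% confidence interval -0.58 to -0.08, adjusted p = 0.0948 by limma) and -0.32 ± 0.12 (-0.57 to -0.07, adjusted p = 0.129). The ventilated genotype difference of Col4a1 did pass in 2 of 21 alternative settings (adjusted p down to 0.0191 by limma). These were without wild type ventilated array 1 and with a further quantile step.

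Col4a2, the divergent partner of Col4a1, gave a difference of -0.19 under ventilation (95% confidence interval -0.42 to 0.05) and -0.14 at baseline (-0.38 to 0.10). Col4a3, which with Col4a4 and Col4a5 forms the mature alveolar network, gave -0.03 (-0.34 to 0.28) and -0.02 (-0.33 to 0.29). Its levels were 8.56, 8.47 and 8.64 in ventilated Zmpste24-/- lungs and 8.26, 8.67 and 8.84 in ventilated wild type lungs, with the mutant arrays inside the wild type range. Col4a5, on the X chromosome in mice and humans, was at 7.19, 6.92 and 7.24 in ventilated Zmpste24-/- lungs and 7.28, 7.36 and 7.42 in ventilated wild type lungs, without overlap, and its difference of -0.24 did not pass (adjusted p = 0.122 by limma). Under ventilation all 6 genotype differences were below 0, from -0.33 to -0.03, with a median of -0.17. At baseline 5 of the 6 were below 0, from -0.32 to 0.02 over the class, with a median of -0.13. The intervals leave room for small shifts of the same direction, and they exclude falls as large as those of Col1a1, Col1a2, Col3a1 and Col6a3.

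The 2 genotype comparisons used separate mice. Of the collagens that passed, 6 did so in both: Col1a1, Col1a2, Col3a1, Col5a1, Col5a2 and Col6a3. They make up 6 of the 10 under ventilation and 6 of the 7 at baseline. Across the 44 genes, which are not independent replicates and share the arrays within a condition, the differences under ventilation and at baseline correlated with Pearson's r = 0.918 and Spearman's rho = 0.766.

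**Figure D3:**
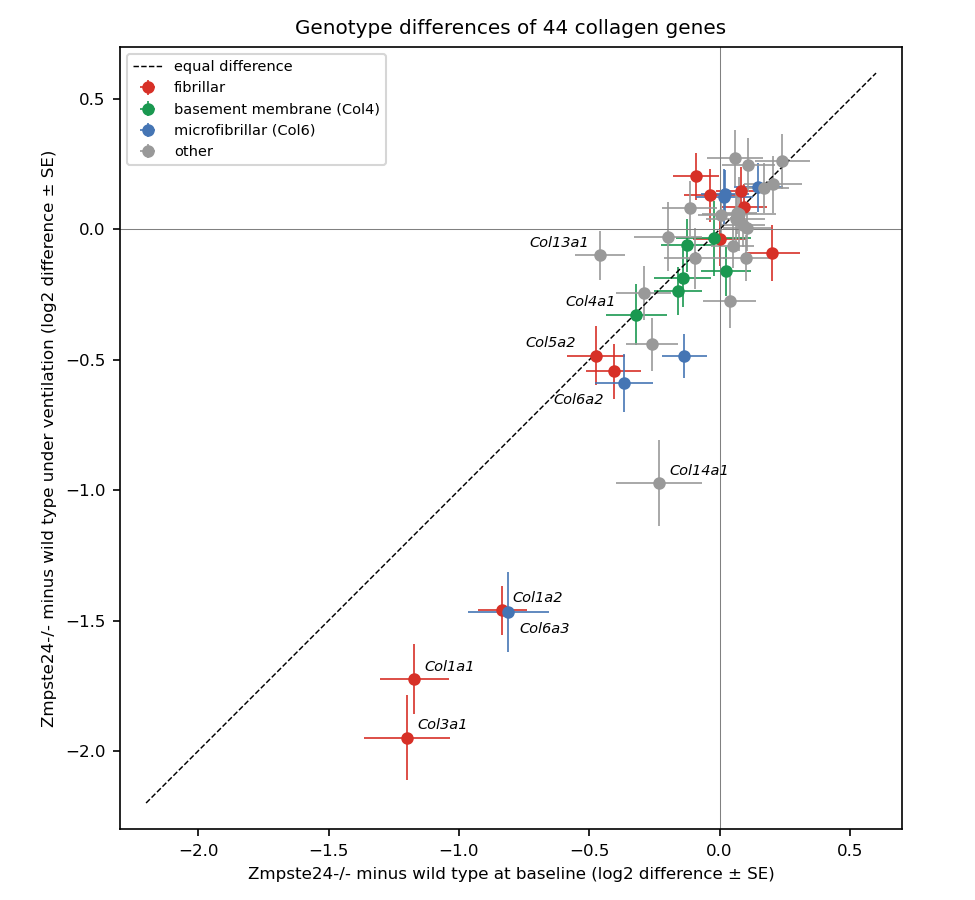
Genotype differences (Zmpste24-/- minus wild type, log2, ± SE) of the 44 collagens under ventilation on the y axis against those at baseline on the x axis, with points coloured by class and a dashed line of equal difference. Col1a1, Col1a2, Col3a1, Col6a3 and Col14a1 lie furthest below the line, and the Col4 points stay between -0.33 and 0.02 on both axes.

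In Zmpste24-/- lungs Col1a1, Col1a2, Col3a1, Col6a1, Col6a2 and Col6a3 were lower after ventilation, while Col6a4, Col6a5 and Col6a6 did not pass (0.15, -0.03 and 0.08). In these mutants 11 collagens passed, 9 lower (20.5% of 44) and 2 higher (4.55%), where 16.4% of all genes passed (7.52% lower, 8.89% higher). In wild type lungs none of the 44 passed by limma, where 7.2% of all genes did (3.53% lower, 3.67% higher), and 4 collagens had an unadjusted p under 0.05 against 20.4% of all genes. The groups did not overlap for 13 collagens in Zmpste24-/- lungs and for 6 in wild type lungs, against 33.4% and 22.6% of all genes. The count of 11 rested on single arrays: it was 6 and 7 without Zmpste24-/- ventilated arrays 2 and 3, and 6 and 7 without Zmpste24-/- baseline arrays 1 and 2.

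In Zmpste24-/- lungs the largest fall was in Col6a3, by 0.95 ± 0.15 on the log2 scale (1.93-fold lower, adjusted p = 0.000863 by limma). Col3a1 was 1.68-fold, Col1a2 1.64-fold and Col1a1 1.53-fold lower (adjusted p = 0.00656, 0.000176 and 0.00621 by limma). The arrays of ventilated and baseline mutants, listed above for each of these genes, did not overlap. In wild type lungs the same ventilation differences were -0.29 for Col6a3, 0.00 for Col3a1, -0.09 for Col1a2 and -0.06 for Col1a1, and all of their 95% confidence intervals include 0. Col6a2 and Col6a1 were 1.37-fold and 1.23-fold lower in ventilated than in baseline mutants (adjusted p = 0.0116 and 0.0278). The Col6a1 call held in 15 of 21 alternative settings and the Col6a2 call in 20.

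Col5a1 and Col5a2 did not pass for ventilation in either genotype, with differences of -0.14 and 0.09 in Zmpste24-/- lungs and 0.00 and 0.10 in wild type lungs. Col4a1 and Col4a2 stood at 0.16 and 0.07 in Zmpste24-/- lungs and 0.17 and 0.11 in wild type lungs, and did not pass. Cell markers also differed with ventilation. Of 12 fibroblast markers, 2 passed as lower in mutants, where all 12 differences were below 0 with a median of -0.28, and 6 passed as lower in wild types, where the median was -0.26. Of 10 endothelial markers, 6 were lower in mutants and 7 in wild types. None of 8 smooth muscle and pericyte markers passed in either genotype by limma. None had an unadjusted p under 0.05, against 6067 of all 22180 genes in mutants and 4530 in wild types. The shares of all genes that were lower were 7.52% in mutants and 3.53% in wild types, and the part of these markers in the collagen differences was not tested.

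The median ventilation difference of the 44 collagens was -0.04 in Zmpste24-/- lungs and -0.02 in wild type lungs, near the all-gene median of -0.01 in both.

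Whether the genotypes responded differently was tested by the interaction term. No collagen passed it by limma, where 0.316% of all genes did, and 8 had an unadjusted p under 0.05 against 11.7% of all genes. The smallest was Col1a2, with a difference between the responses of -0.63 ± 0.13 (adjusted p = 0.068 by limma). Col3a1 followed with -0.75 ± 0.23 (adjusted p = 0.198), Col14a1 with -0.74 ± 0.23 (0.206) and Col6a3 with -0.66 ± 0.22 (0.229). A fall that passed in mutants and not in wild type mice was therefore not shown to differ between them by this test.

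**Figure D4:**
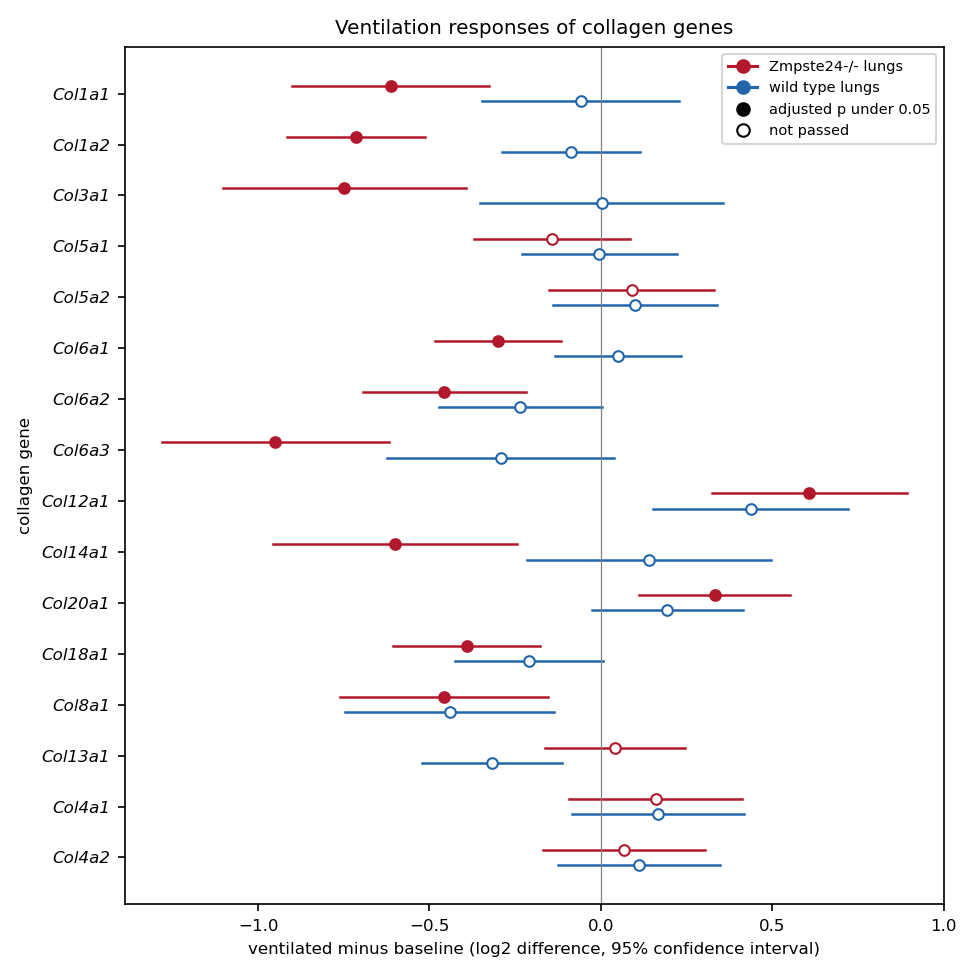
Ventilated minus baseline differences (x axis, log2, with 95% confidence intervals) of 16 collagen genes, with Zmpste24-/- above wild type in each row and filled points for an adjusted p under 0.05. The 11 filled points are all Zmpste24-/-, and the intervals of Col12a1 and Col8a1 lie on one side of 0 in both genotypes.

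Among the 21 collagens of other types are 9 fibril-associated genes, of which Col12a1, Col14a1 and Col20a1 passed somewhere and 6 nowhere. Col14a1, which binds the fibril surface, read 6.68, 6.22 and 6.44 in ventilated Zmpste24-/- lungs and 7.24, 7.69 and 7.34 in ventilated wild type lungs. In baseline lungs it read 7.37, 6.98 and 6.79 in Zmpste24-/- mice and 7.24, 7.11 and 7.50 in wild type mice. Only the Zmpste24-/- ventilated arrays stood apart, 1.96-fold below wild type ventilated arrays (adjusted p = 0.00245 by limma) and 1.52-fold below Zmpste24-/- baseline arrays (adjusted p = 0.0233). The baseline genotypes overlapped. The ventilation call in mutants held in 17 of 21 alternative settings. It was lost without Zmpste24-/- ventilated array 2 or 3, without Zmpste24-/- baseline array 1 and with all probes fitted (adjusted p up to 0.108).

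Col12a1, a fibril-associated collagen of tissue under tension, went the other way. It read 7.72, 7.80 and 7.97 in ventilated Zmpste24-/- lungs and 7.37, 7.30 and 7.01 in baseline Zmpste24-/- lungs. Its level was 7.73, 7.72 and 8.13 in ventilated wild type lungs and 7.40, 7.28 and 7.60 in baseline wild type lungs. Ventilated arrays lay above baseline arrays in both genotypes, and it rose 1.52-fold in Zmpste24-/- lungs (adjusted p = 0.0061 by limma), while the wild type difference of 0.44 ± 0.13 did not pass (adjusted p = 0.0648). The interaction was 0.17 (95% confidence interval -0.23 to 0.57). Its genotype differences, -0.03 under ventilation and -0.20 at baseline, did not pass.

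Col8a1, a short-chain network collagen of vessel walls, gave similar ventilation differences in the genotypes: -0.46 ± 0.14 in Zmpste24-/- lungs (adjusted p = 0.0407 by limma) and -0.44 ± 0.14 in wild type lungs (adjusted p = 0.0807). Its mutant call held in 12 of 21 alternative settings. Col20a1, a fibril-associated gene, was 1.26-fold higher in ventilated mutants (adjusted p = 0.0411), a call that held in 11 of 21. Col18a1 encodes the basement membrane collagen from which endostatin is cut. It read 6.21, 5.98 and 6.2 in ventilated Zmpste24-/- lungs, 6.72, 6.51 and 6.49 in ventilated wild type lungs, 6.42, 6.67 and 6.48 in baseline Zmpste24-/- lungs and 6.78, 6.87 and 6.70 in baseline wild type lungs. Ventilated mutants were 1.36-fold below ventilated wild types (adjusted p = 0.0127) and 1.31-fold below baseline mutants (adjusted p = 0.0157). These calls held in 20 and 19 of 21 alternative settings, with adjusted p up to 0.059 without Zmpste24-/- ventilated array 2 for the first and up to 0.0804 without that array or Zmpste24-/- baseline array 2 for the second. Its fellow multiplexin Col15a1 had genotype differences of -0.24 and -0.29 and did not pass.

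Col13a1, a transmembrane collagen of cell contacts, was the 1 collagen that passed between the genotypes at baseline alone. It read 7.06, 6.99 and 7.08 in baseline Zmpste24-/- lungs and 7.51, 7.38 and 7.61 in baseline wild type lungs, 1.38-fold lower in the mutants (adjusted p = 0.012 by limma). Under ventilation it read 7.07, 6.96 and 7.23 in Zmpste24-/- lungs and 7.29, 7.06 and 7.21 in wild type lungs, which overlapped. The ventilation difference was 0.04 in mutants and -0.32 in wild types (adjusted p = 0.0617), with an interaction of 0.36 ± 0.13 (adjusted p = 0.292).

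Col23a1 and Col9a2, among the 3 genes of the other types with the highest mean over the 12 arrays, passed nowhere. Col23a1 read 8.47, 8.35 and 8.21 in ventilated Zmpste24-/- lungs and 8.53, 8.63 and 8.54 in baseline Zmpste24-/- lungs, a ventilation difference of -0.22 (adjusted p = 0.0951 by limma). Col28a1 gave a genotype difference of -0.28 under ventilation and lay under the array median everywhere.

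In all, 14 collagens passed in at least 1 of the 4 pairwise comparisons and 30 in none, where 25.7% of all genes passed in at least 1. All 14 lay above the median of every array, as did 32 of the 44, and 8 were under it on every array. A gene near the floor of the array has little room to fall, and no filter on low values was applied. Arrays did not contribute evenly to these 14 genes. Zmpste24-/- baseline array 3 was the lowest of its group for 10 of them, wild type baseline array 3 the highest of its group for 9, and Zmpste24-/- ventilated array 1 the highest of its group for 8. At baseline 5 collagens passed without Zmpste24-/- baseline array 3, 5 without wild type baseline array 2, which carried the liver transcripts, and 5 without wild type baseline array 3.

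The enzymes that modify and fold procollagen did not move as one with the chains. Of 19 measured genes of this list, 2 were higher and 3 lower in Zmpste24-/- than in wild type lungs under ventilation (26.3% passed, against 10.8% of all genes), and 1 was lower at baseline (5.26%, near the 6.31% of all genes). In ventilated against baseline mutants 3 were higher and 2 lower (26.3%, against 16.4% of all genes), and in wild types 1 and 1 (10.5%, against 7.2%). P4ha1 and P4ha2 encode the catalytic subunits of prolyl 4-hydroxylase, which stabilises the triple helix. P4ha1 read 9.77, 9.56 and 10.02 in ventilated Zmpste24-/- lungs, 9.12, 9.0 and 9.37 in ventilated wild type lungs, 9.12, 8.68 and 9.0 in baseline Zmpste24-/- lungs and 8.83, 9.04 and 9.23 in baseline wild type lungs. It was highest in ventilated mutants, where the type I and III chains were lowest, 1.54-fold over ventilated wild types (adjusted p = 0.0167 by limma) and 1.80-fold over baseline mutants (adjusted p = 0.00145).

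P4ha2 was 1.47-fold higher in ventilated mutants than in ventilated wild types. At baseline its genotype difference of 0.39 on the log2 scale did not pass. Ventilation went with a rise of 0.72 ± 0.12 in mutants and 0.56 ± 0.12 in wild types. Colgalt2, a collagen galactosyltransferase, was lower in all 4 comparisons, by 1.46-fold and 1.33-fold between genotypes under ventilation and at baseline and by 1.52-fold and 1.38-fold with ventilation in mutants and wild types. The collagen prolyl 3-hydroxylase P3h1 was lower by 1.30-fold in ventilated mutants than in ventilated wild types. Serpinh1, the collagen chaperone HSP47, named after its values were seen, rose with ventilation in mutants by 0.58 ± 0.13 (adjusted p = 0.00658 by limma).

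Of 12 measured genes for trimming and crosslinking, 3 were lower and 1 higher in Zmpste24-/- than in wild type lungs under ventilation (33.3% passed, against 10.8% of all genes), and 3 were lower at baseline (25%, against 6.31%). Bmp1, the procollagen C-proteinase, read 7.98, 7.90 and 8.09 in ventilated Zmpste24-/- lungs and 8.49, 8.57 and 8.81 in ventilated wild type lungs, 1.56-fold lower (adjusted p = 0.012 by limma). Its enhancer Pcolce was 1.55-fold lower in the same comparison, and Pcolce2 was 1.39-fold lower there and 1.31-fold lower at baseline. Loxl1, a lysyl oxidase also needed for elastic fibres, read 8.70, 8.82 and 8.48 in baseline Zmpste24-/- lungs and 9.28, 9.55 and 9.76 in baseline wild type lungs, 1.82-fold lower (adjusted p = 0.00248).

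Lox, the lysyl oxidase that starts collagen crosslinks, rose with ventilation in both genotypes. It read 9.37, 9.79 and 9.64 in ventilated Zmpste24-/- lungs, against 8.08, 8.61 and 8.44 in baseline Zmpste24-/- lungs. In wild types it read 9.72, 9.45 and 9.42 in ventilated lungs, against 8.68, 8.15 and 8.49 in baseline lungs. Ventilated arrays were all above baseline arrays, 2.34-fold in mutants and 2.13-fold in wild types (adjusted p = 0.000176 and 0.00125 by limma).

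Of 9 measured collagen receptors, 5 were lower in Zmpste24-/- lungs under ventilation and the same 5 at baseline (6.08% and 4.11% of all genes were lower), and none was higher. The other 4, Ddr1, Itga11, Itgb1 and Gp6, passed in neither, and the median differences of the list were -0.35 and -0.50. Ddr2, a receptor tyrosine kinase of fibrillar collagen found on mesenchymal cells, read 8.84, 8.86 and 8.80 in ventilated Zmpste24-/- lungs, 9.57, 9.66 and 9.83 in ventilated wild type lungs, 9.44, 9.02 and 9.21 in baseline Zmpste24-/- lungs and 9.80, 9.64 and 9.73 in baseline wild type lungs. It was 1.81-fold and 1.41-fold lower (adjusted p = 0.000336 and 0.0141 by limma). The integrin chains Itga1 and Itga2 were 1.54-fold and 1.45-fold lower under ventilation and 1.45-fold and 1.55-fold lower at baseline. Lair1, an inhibitory collagen receptor of leukocytes, was 1.82-fold and 1.41-fold lower, and the endocytic receptor Mrc2 1.28-fold and 1.60-fold lower. Itga1 was lower in ventilated than in baseline lungs of both genotypes, and fell by 0.53 ± 0.10 in mutants and 0.45 ± 0.10 in wild types.

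Of 7 collagen-degrading proteases, 4 were higher and 1 lower with ventilation in mutants (8.89% and 7.52% of all genes). In wild types 3 were higher and 0 lower (3.67% and 3.53%). Between the genotypes 1 was higher and 2 lower under ventilation (4.72% and 6.08%), and 0 higher and 2 lower at baseline (2.2% and 4.11%). Among the 7, Mmp2, a gelatinase of mesenchymal cells, had the pattern of the type I and III genes. It read 7.41, 7.55 and 7.61 in ventilated Zmpste24-/- lungs, 9.48, 9.67 and 9.88 in ventilated wild type lungs, 8.41, 8.47 and 8.15 in baseline Zmpste24-/- lungs and 9.36, 9.54 and 10.12 in baseline wild type lungs. The genotypes did not overlap, and Mmp2 was 4.44-fold lower under ventilation and 2.51-fold lower at baseline (adjusted p = 2.36e-05 and 0.00083 by limma). Ventilation went with a 1.76-fold lower level in mutants (adjusted p = 0.00411), and the wild type difference was 0.00.

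Mmp8, the neutrophil collagenase, went in the opposite direction, 2.84-fold higher in ventilated Zmpste24-/- than in ventilated wild type lungs (adjusted p = 0.00347 by limma). It was 4.98-fold higher in ventilated than in baseline mutants and 2.16-fold higher in ventilated than in baseline wild types. It is also 1 of 6 neutrophil markers, of which 5 were higher in ventilated Zmpste24-/- than in ventilated wild type lungs and 6 in ventilated than in baseline mutants, where 4.72% and 8.89% of all genes were higher. Their summed log2 level was 11.76 to 11.93 in ventilated Zmpste24-/- lungs, 10.39 to 11.07 in ventilated wild type lungs, 9.92 to 10.80 in baseline Zmpste24-/- lungs and 9.40 to 10.31 in baseline wild type lungs. Mmp14, the membrane-bound collagenase, was 1.64-fold lower in baseline Zmpste24-/- than in baseline wild type lungs, and rose 1.76-fold with ventilation in mutants. Ctsk, a lysosomal collagenase, rose with ventilation in both genotypes, 1.59-fold in mutants and 1.70-fold in wild types.

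**Figure D5:**
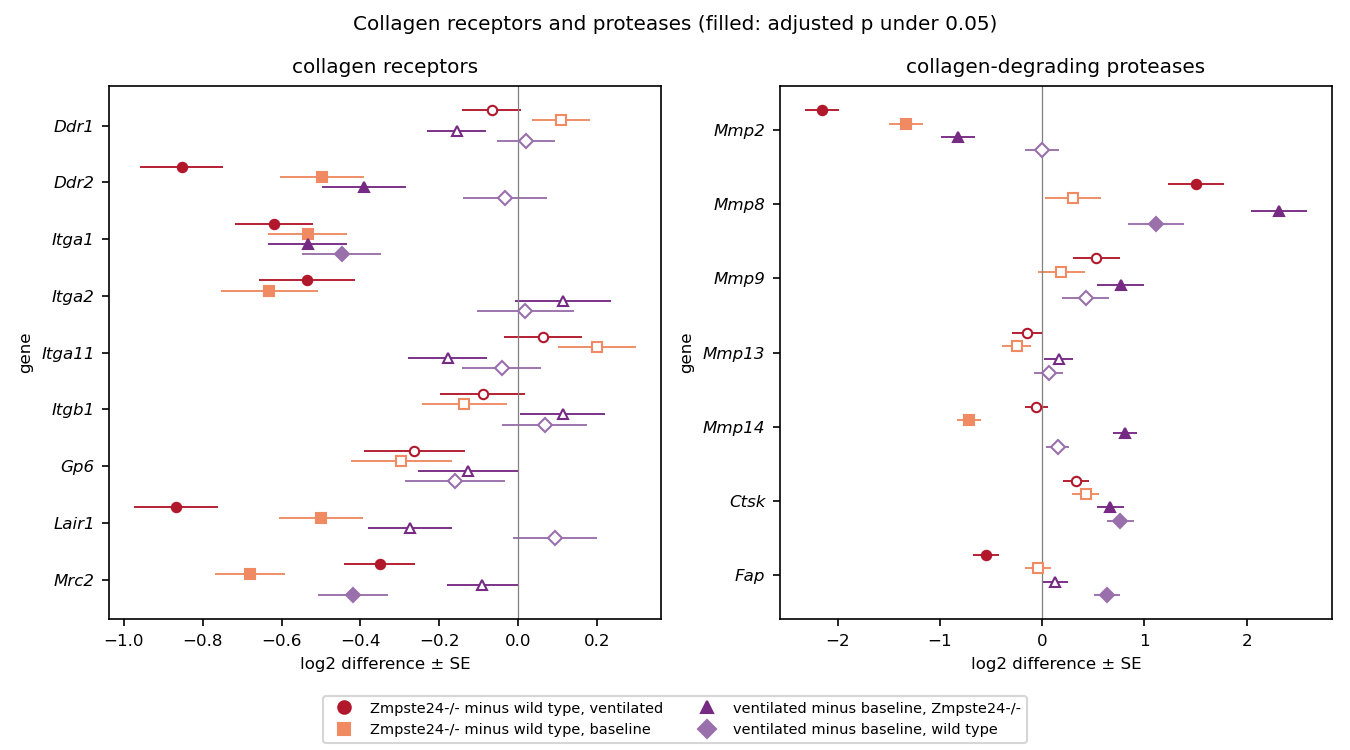
Log2 differences (x axis, ± SE) of 9 collagen receptors and 7 collagen-degrading proteases in the 4 pairwise comparisons, shown by symbol, with filled symbols for an adjusted p under 0.05. Ddr2, Itga1, Itga2, Lair1, Mrc2 and Mmp2 have filled symbols below 0 in both genotype comparisons, and Mmp8 has filled symbols above 0 in 3 of the 4.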

How the data were processed

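RNA from lung was labelled and hybridised to one-colour Affymetrix arrays, and the authors deposited normalized log2 values of 41345 probes on 12 arrays. The tools RMA and limma, without versions, are those of the submitters' processing notes. RMA as usually run corrects background, equalises the distribution of arrays and summarises probes on the log2 scale. No slide or scan date was among the labels, so batches were not tested, and the log2 scale was read from the range of values. Of the probes, 23521 had 1 symbol, 1814 several and 16010 none in the annotation. Each of 22180 genes was represented by its brightest 1-symbol probe, and all 44 collagen symbols were in RefSeq (GRCm38.p6).

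With limma 3.58.1 in R 4.3.3 (lmFit, eBayes), the model held 1 mean for each group over all 12 arrays. The 5 contrasts of group means were tested, with Benjamini-Hochberg adjustment over all genes of each. With 3 arrays against 3, an exact permutation test of 1 gene cannot go below p = 0.1. The fit was tested on simulated arrays with the gene means and spread of the real ones. The Zmpste24-/- ventilation comparison recovered 39 of 67 simulated log2 changes of 0.5, 62 of 67 of 1 and 66 of 66 of 2. It made 11 false calls beside 167 true ones, and a change of 0.5 can thus go uncalled. Far fewer genes were changed in the simulation than the 3641 that passed in the real comparison. The adjustment depends on that number, so the shares recovered hold for the simulation only. Plots used matplotlib 3.10.9 in Python 3.11.15. Alternatives were each array left out, filters on low signal, median centring, another quantile step, the mean of probes, all probes, an intensity trend, a replicate block and the 2 groups fitted alone.

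Collagens, gene lists and tests were chosen with earlier results of these data known. Named were collagens that passed anywhere, the 3 with the highest mean per class and the 3 nearest to passing per pairwise comparison. For the pathway lists the plan was up to 4 passing members per list and comparison, those with the smallest adjusted p. The plan was not followed throughout: fewer or more are named for some comparisons, so passing members can be missing from the text.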

Additional observations from a re-analysis of the deposited data

Results flagged for a closer look

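Tcf21, a transcription factor of lung fibroblasts and 1 of the 12 fibroblast markers set beside the collagens, responded to ventilation differently in the genotypes by the interaction term, with a difference between the responses of 0.84 ± 0.16 (SE, n = 3 per group, adjusted p = 0.0441 by limma). It read 9.17, 9.54 and 9.42 in ventilated Zmpste24-/- lungs, 8.80, 8.65 and 8.48 in ventilated wild type lungs, 9.47, 9.50 and 9.66 in baseline Zmpste24-/- lungs and 9.58, 9.62 and 9.74 in baseline wild type lungs. The wild type ventilated arrays were the lowest, 2.01-fold below wild type baseline arrays. The collagens of types I and III were lowest in ventilated Zmpste24-/- lungs, and a link between them and Tcf21 was not tested. This Tcf21 call was not recomputed in the alternative settings.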

How the results depend on the processing

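Of 2481 recomputed values of 24 named collagen genes, 2414 kept their side of the threshold, 53 lost a call and 14 gained one. None changed sign where the main or the alternative fit called it. Values called in neither fit could change sign: the baseline genotype difference of Col6a1, -0.14, ranged up to 0.19. Col1a1, Col1a2, Col3a1 and Col6a3 passed in all 21 alternatives in each of the 3 comparisons in which they had passed. For ventilation in Zmpste24-/- lungs the count of 11 fell to 7 with all probes fitted, which tests more features, and ranged from 6 to 11 when 1 array was left out. For ventilation in wild type lungs the count of 0 became 2 with the replicate block, 2 with genes under the median left out (fewer genes tested), 1 with array medians subtracted and 2 with a further quantile step, and ranged from 0 to 1 on leaving out 1 array (1 without wild type baseline array 2). Between the genotypes, leaving out 1 array gave 9 to 12 against 10 under ventilation and 5 to 7 against 7 at baseline, and the mean of the probes gave 8 under ventilation and 6 at baseline. The interaction count of 0 became 1 with genes under the median left out (Col1a2, adjusted p = 0.0409 by limma) and ranged from 0 to 1 (Col3a1 without wild type ventilated array 1, adjusted p = 0.0401). The labels do not say whether the replicate numbers pair the mice. Correlations of same-numbered deviations ran from -0.15 to 0.15, with 2 of 18 over 0.1, and low values cannot exclude pairing. Deviations of each baseline Zmpste24-/- array correlated most with those of the baseline wild type array of its number. That did not hold throughout any other pair of groups. With the number as a replicate block, 10 collagens passed under ventilation and 6 at baseline between the genotypes, 10 for ventilation in mutants and 0 for the interaction. Except where stated, the cause was not tested. Of 416 class medians, 11 moved by more than the median replicate SD of 0.12. The number of arrays, 3 per group, limits precision.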

Other observations

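Genes of transforming growth factor beta signalling, a main inducer of fibrillar collagen transcription in fibroblasts, changed in both directions. Of 16 measured, 1 was higher and 4 were lower in Zmpste24-/- than in wild type lungs under ventilation, where 4.72% of all genes were higher and 6.08% lower. At baseline 4 were lower and none higher, where 4.11% of all genes were lower and 2.2% higher. The ligand Tgfb3 read 7.97, 7.91 and 7.88 in baseline Zmpste24-/- lungs and 8.44, 8.55 and 8.53 in baseline wild type lungs, 1.5-fold lower (adjusted p = 0.00283 by limma). Tgfb1 was 1.38-fold lower at baseline, with 8.51, 8.77 and 8.46 in Zmpste24-/- lungs and 9.08, 8.99 and 9.07 in wild type lungs. The latent binding proteins Ltbp1 and Ltbp2, which hold the ligand in the matrix, were lower in both conditions, by 1.34-fold and 1.33-fold under ventilation and 1.27-fold and 1.29-fold at baseline. Ltbp3 gave the most negative genotype difference of the list under ventilation, -0.49. With ventilation, 4 of the 16 were higher and 2 lower in mutants (8.89% and 7.52% of all genes). In wild types 1 was higher and 2 lower (3.67% and 3.53%).

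Skil, an inhibitor of SMAD proteins that the pathway itself induces, was highest in ventilated mutants, with 8.43, 8.50 and 8.64 in ventilated Zmpste24-/- lungs and 8.05, 7.95 and 7.94 in ventilated wild type lungs. It was 1.46-fold higher than in ventilated wild types (adjusted p = 0.00939 by limma) and 1.75-fold higher than in baseline mutants. Ccn2, another known target, was 1.54-fold higher in ventilated than in baseline wild types (adjusted p = 0.0479), and Smad7 was 1.52-fold lower (adjusted p = 0.00651). None of the 16 genes of the list passed the interaction by limma (smallest adjusted p = 0.21), where 0.316% of all genes did. These wild type responses were therefore not shown to differ from those of mutants. The interaction of Ccn2 was -0.41.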
